A study of Mus musculus with 12 samples.

Results

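The Zfp genes, the mouse genes named for zinc finger proteins, were followed in CT26 cells, a mouse colon carcinoma line. Members were chosen by symbol and annotation alone: every protein-coding gene of the expression table whose symbol is Zfp followed by a number. This gave 269 members among the 12584 genes of the table, of which 10449 are protein-coding, and left out 2 Zfp symbols not annotated as protein-coding. Cells had been treated for 24 h with NP-D@MP, NP-D@M, NP@M or PBS, and each treatment had 3 libraries. The labels do not spell these names out, and the study's title speaks of a membrane-coated nanodrug directed at CDKs, so the letters D and P are used here only as names. All 4 groups share the cell line, which limits the data to 1 line, and no allele or transgene is named. Nothing in the labels tells separate cultures from repeat libraries of a single culture, and the p-values rest on the spread among these libraries, which may be technical.

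Most Zfp genes encode proteins with tandem C2H2 zinc fingers, in which each finger holds a zinc ion and reads a few bases of DNA. Many also carry a KRAB domain, which recruits the co-repressor TRIM28 and, through it, the histone methyltransferase SETDB1 and heterochromatin proteins. KRAB zinc finger genes lie in clusters and are known for silencing endogenous retroviruses and for guarding imprinted loci. A smaller number of Zfp genes encode RNA-binding, ubiquitin ligase or ribosome-related proteins, so the symbol does not by itself name a transcription factor.

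The table assigns 239 of the 269 members to the zf-C2H2 transcription factor family and 2 to ZBTB, and gives no family for 28. Translated coding sequences held a median of 10 C2H2 fingers per member and at most 36, with 7 members holding none and 31 holding 1 to 4. A KRAB A box core was found in 129 members and not in 140. The core is a single short pattern, so members without a match may still hold a KRAB domain. In Zfp770 the match did not lie before the first finger. The transcripts of the members were longer than those of the table, with a median gene length of 4724 against 3831 bases, and lower in GC content, with a median of 43.7% against 49.5%. In all, 156 members had another member within 200 kb, and chromosome 7 alone held 70 of them, followed by chromosome 17 with 36 and chromosome 13 with 25. In 30 members over 20% of the 50-base words of the transcripts occur in other genes, which makes their read counts uncertain, while 100 members share no such word.

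Short stretches that join neighbouring fingers are a shared sequence feature of the family and are shown for that reason. Among 2616 gaps between neighbouring fingers, 2178 were 7 codons long, and 241 members had at least 1 such gap. The most frequent first 15 bases stood in 120 gaps of 45 members. One such gap of 7 codons is shown for members described below, 5′ to 3′ from the GENCODE M21 coding sequences, with capitals for the bases that equal the most frequent first 15.
Zfp760: ACTGGAGAGAAACCCtactca
Zfp12: ACaGGAGAGAAgCCCttcaag
Zfp978: ACaGGAGAGAAACCttacaaa
Zfp260: ACaGGtGAtAAACCCtatgaa
Zfp1: ACaGGAGAGcggCCCtacgag
Zfp954: ACaGGAGAGAtgCCttttaag
Zfp110: ACaGGAGAGcggCCatatatg
The lines differ from the most frequent bases at 0 positions in Zfp760, 2 in Zfp12 and Zfp978, 3 in Zfp260, 4 in Zfp1 and Zfp954, and 5 in Zfp110. Longer identity also occurs: a word of 50 coding bases of Zfp978, shown because this member had the largest rise of the family, is found in 10 other genes, 3 of them members.
Zfp978 coding word: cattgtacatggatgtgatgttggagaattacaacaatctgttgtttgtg

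Promoter sequence was given by the RefSeq table (build GRCm38.p6) for 222 members in 266 windows, each from 250 bases before to 50 bases after a transcript start. CG dinucleotides were counted because most mammalian promoters that lack a TATA box are rich in them. The windows of members held a median of 14 CG, against 7 over all 32851 windows of the RefSeq table. Those windows come from 27025 genes, whether analysed here or not, and the windows of the analysed genes alone were not compared. The word TATAAA, searched on both strands, stood in 6.77% of the members' windows and in 13.6% of all windows. The word CCGGAAG, the core read by ETS factors, stood in 21.05% of the members' windows and in 8.86% of all windows, again on both strands. A match is a description and not a binding site. Windows are shown for the largest fall in NP-D@M vs NP@M, a fall of an abundant member and a rise, the last being 1 of 2 windows of Zfp219, with each CG in capitals.
Zfp622, chr15:25984116-25984415, plus strand: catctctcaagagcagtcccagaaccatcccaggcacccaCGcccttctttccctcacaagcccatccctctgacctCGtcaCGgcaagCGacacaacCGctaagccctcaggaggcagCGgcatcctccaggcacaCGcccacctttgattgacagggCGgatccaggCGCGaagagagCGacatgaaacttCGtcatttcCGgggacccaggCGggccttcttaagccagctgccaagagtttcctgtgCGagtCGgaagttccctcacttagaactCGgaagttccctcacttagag
Zfp110, chr7:12834511-12834810, plus strand: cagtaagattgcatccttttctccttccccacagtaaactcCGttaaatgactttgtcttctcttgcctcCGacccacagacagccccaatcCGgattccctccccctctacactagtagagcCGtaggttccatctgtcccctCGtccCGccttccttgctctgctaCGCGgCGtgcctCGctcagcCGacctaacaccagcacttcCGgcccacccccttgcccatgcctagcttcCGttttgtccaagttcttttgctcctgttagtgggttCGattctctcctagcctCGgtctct
Zfp219, chr14:52019664-52019963, minus strand: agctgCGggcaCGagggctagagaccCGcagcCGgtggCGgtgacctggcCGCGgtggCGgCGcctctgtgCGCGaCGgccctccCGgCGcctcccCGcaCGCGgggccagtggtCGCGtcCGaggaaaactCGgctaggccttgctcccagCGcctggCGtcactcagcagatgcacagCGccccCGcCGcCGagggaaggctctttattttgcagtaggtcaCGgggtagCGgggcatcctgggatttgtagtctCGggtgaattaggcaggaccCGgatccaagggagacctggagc
They hold 17, 15 and 31 CG, and the other Zfp219 window holds 9. The 218 windows of members that fell in FPKM in NP-D@M cells had a median of 14 CG, with quartiles of 8 and 21. The 19 windows of members that rose in FPKM came from 14 genes and had a median of 22, with quartiles of 8.5 and 32.5. A difference between them was not tested.

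The expression values are FPKM, read counts scaled by the authors for gene length and library size, and whole reads were recovered from them. The reads in the table were alike in depth across groups, at 13.4 to 14.2 M reads per library with NP-D@MP, 12.8 to 14.9 M with NP-D@M, 15.1 to 15.5 M with NP@M and 13.9 to 15.7 M with PBS. The divisor behind the FPKM was not alike: it equalled 0.533 to 0.565 times the table's reads in libraries with D, and 1.95 to 2.02 times in those without D. Its origin was not found in the labels or file headers. A read therefore counted for more FPKM in libraries with D, and results are also given in reads or on the table-read scale, which divides by the reads of the table instead. The labelled cell type could be checked only in part. Of 8 colon epithelium markers 2 are among the genes analysed, Krt20 and Krt18, and they summed to 73.0 to 87.7 FPKM with NP-D@M and 15.1 to 16.4 FPKM with NP@M. Krt20 averaged 78.0 FPKM with NP-D@M and 8.67 FPKM with NP@M, and Krt18 averaged 4.46 FPKM with NP-D@M and 6.89 FPKM with NP@M. All 6 fibroblast markers are, and summed to 11.1 to 13.1 FPKM with NP-D@M and 70.6 to 73.1 FPKM with NP@M, with 4 called lower and, without a filter, 1, Dcn, called higher at 0.355 FPKM with NP-D@M and 0.0544 FPKM with NP@M. Of 5 myeloid markers 3 are, and summed to 9.31 to 18.3 FPKM with NP-D@M and 2.62 to 3.25 FPKM with NP@M, with 2 called higher in FPKM and 0 called on the table-read scale, while Ptprc, which marks all leukocytes, averaged 0.0226 FPKM with NP-D@M and 0 FPKM with NP@M. The lymphoid markers are not among the genes analysed, and of the endothelium markers Pecam1 did not exceed 0.191 FPKM with NP-D@M and was at 0 with NP@M. No retina marker is among the genes analysed, although the protocol text speaks of retinas. The part of other cell types in the results on Zfp genes was not tested.

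Reads on Zfp genes made up a small, stable share of each library without D and a much smaller share of each library with D. The 269 members together held 0.108, 0.108 and 0.109% of the reads with NP-D@MP, and 0.116, 0.117 and 0.112% with NP-D@M. They held 0.703, 0.744 and 0.730% with NP@M, and 0.679, 0.661 and 0.719% with PBS. Every library with D lay below every library without D, by a factor of 6.30 between the means of NP-D@M and NP@M and of 6.32 between those of NP-D@MP and PBS. With NP@M and PBS the ranges touched neither group with D but overlapped each other. This share does not depend on the authors' library size, and fewer Zfp transcripts per cell and more RNA of other genes cannot be told apart in it.

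**Figure D1:**
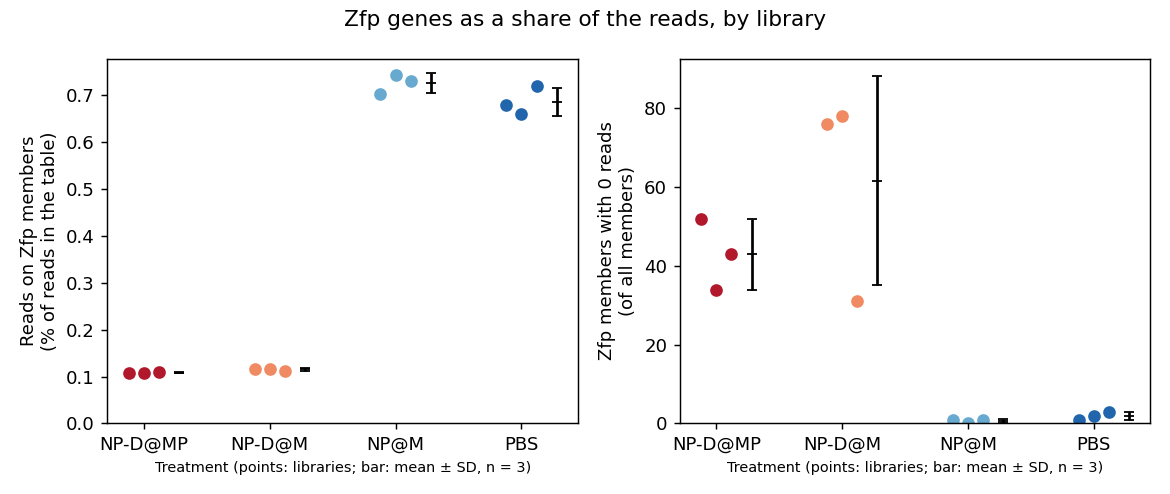
Left, reads on the 269 Zfp members as a percentage of the reads in the table (y axis from 0) in each library of the 4 treatments; right, the number of members with 0 reads. Points are libraries and bars give mean ± SD (n = 3); the 6 libraries with D lie at 0.108 to 0.117% and the 6 without D at 0.661 to 0.744%.

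Detection fell along with the share. Members with 0 reads numbered 52, 34 and 43 in the NP-D@MP libraries, which is 12.6 to 19.3% of them, against 8.77 to 9.62% of all genes. They numbered 76, 78 and 31 in the NP-D@M libraries, or 11.5 to 29.0%, against 8.25 to 17.5% of all genes. They numbered 1, 0 and 1 with NP@M and 1, 2 and 3 with PBS, at most 1.12%, against 4.60 to 6.54% of all genes. The third NP-D@M library stood apart from the other NP-D@M libraries in this measure.

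Over the 6 libraries with D, 34 members (12.6%) had 10 or fewer reads, against 8.92% of all genes. Over the 6 without D no member did, against 5.27% of all genes. Members with 0 reads in all 6 libraries with D and some without D numbered 7 (2.60%), a share near the 2.85% of all genes. These 7 had 65 to 281 reads summed over the libraries without D, and Zfp85, Zfp712, Zfp429 and Zfp455, with 281, 237, 186 and 160 reads there, lie in a cluster on chromosome 13.

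The reads that remained sat on fewer genes. The 10 members with the most reads held 47.0% of all member reads with NP-D@MP and 45.5% with NP-D@M, against 23.7% with NP@M and 24.2% with PBS. Zfp106 and Zfp365 led in both groups with D, while Zfp706 and Zfp207 led in both groups without D. The median member had 50 reads summed over the 3 NP-D@M libraries and 732 over the 3 NP@M libraries. It had 35 reads summed over the 3 NP-D@MP libraries and 644 over the 3 PBS libraries.

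NP-D@M was set against NP@M to ask what the D in the name changes in an otherwise like-named carrier. Over all 269 members without a filter on low values, limma called 16 higher and 218 lower, which is 5.95% and 81.0% of them (Benjamini-Hochberg adjusted p under 0.05 over all 12584 genes). Over all genes of the table it called 35.1% higher and 45.8% lower. The median log2 change on the log2(FPKM + 1) scale was -0.74 for members and -0.14 for all genes. A fit of genes that reached 1 FPKM in 3 or more libraries kept 190 members, of which it called 15 higher and 157 lower, against 41.8% of 10101 genes higher and 47.7% lower. Of those 190, 81 had no library with D at 1 FPKM and so passed through the libraries without D alone. Those 81 had to be lower, so the filtered count is given as a description. The same holds for the adjusted p-values of single members among them, which include Zfp622, Zfp212, Zfp638, Zfp451 and Zfp445.

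The direction of most rises depended on the scaling. On the table-read scale, 2 members were called higher and 259 lower of 269, against 14.5% and 67.1% of all genes, and 2 and 185 of the 190 that passed the filter, against 17.5% and 70.5% of genes. Without the filter the median log2 change was -1.63 for members and -1.06 for all genes. On this scale the median member stood in NP-D@M cells at 6.65% of its NP@M level, with quartiles of 3.22% and 12.8%, while the median gene stood at 19.4%. A level below 25% of that in NP@M was seen in 241 members (89.6%), against 54.2% of all genes with a value above 0 in NP@M. A level above that in NP@M was seen in 4 members (1.49%), Zfp978, Zfp219, Zfp296 and Zfp750, against 22.4% of all genes. With quantile normalization, which gives every library the same distribution, 20 of the 190 filtered members were called higher and 102 lower, against 37.7% and 41.8% of genes. In FPKM as deposited, the libraries did not overlap in 16 members that were higher and 215 that were lower, against 34.4% and 46% of all genes.

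**Figure D2:**
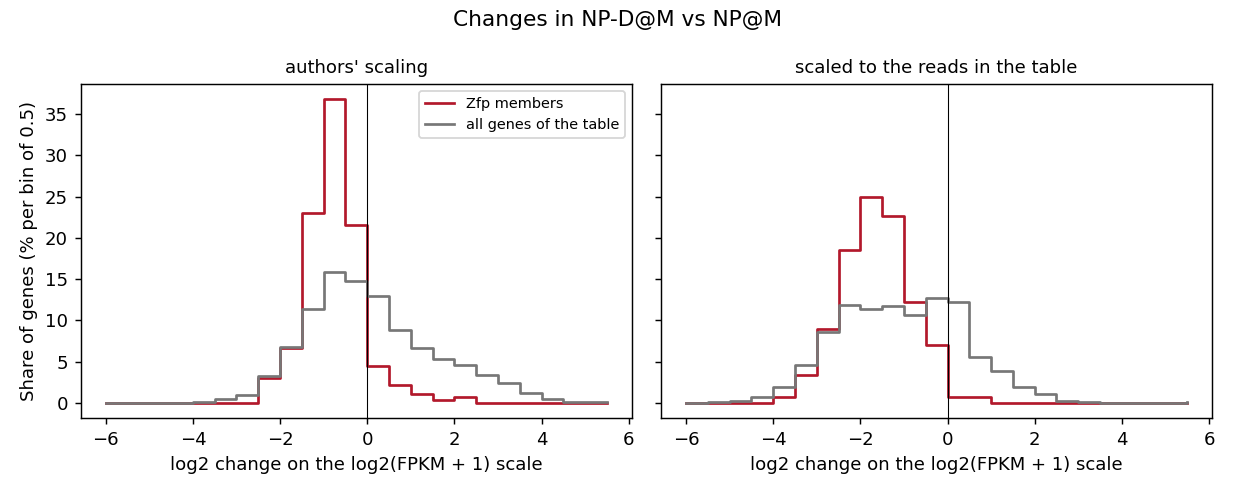
Share of genes (y axis, percent per bin of 0.5) by log2 change in NP-D@M vs NP@M (x axis) for the 269 Zfp members in red and all 12584 genes in grey, without a filter. With the authors' scaling (left) the medians are -0.74 and -0.14, and on the table-read scale (right) they are -1.63 and -1.06.

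NP-D@MP against PBS, the complete treatment against the vehicle, shares no library with that comparison and gave largely the same calls. Both sets of calls use the same estimate of spread per gene, taken from all 12 libraries. Of the 269 members, limma called 17 higher and 217 lower without a filter, against 37% of all genes higher and 45% lower. The filtered fit called 17 higher and 158 lower of 190, against 43.2% and 47.3% of genes. On the table-read scale 2 were higher and 257 lower, against 14.6% and 67.1% of all genes, and 2 and 186 of 190 with the filter, against 17.5% and 70.7%. The libraries did not overlap in 17 members that were higher and 230 that were lower, against 39.2% and 48.2% of all genes. The members called lower in both comparisons were 202, which is 92.7% of the 218 and 93.1% of the 217. Those called higher in both were 15, which is 93.8% of the 16 and 88.2% of the 17. Over all genes these shares were 92.1% and 93.7% for lower calls and 93.4% and 88.8% for higher calls, close to those of the members. No member was called in opposite directions, and the sign of the log2 change was the same in 261 of 269 (97.0%), against 94.6% of all genes. Zfp239 was called higher in NP-D@M vs NP@M alone, and Zfp511 and Zfp991 in NP-D@MP vs PBS alone, and no difference between the comparisons was tested.

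**Figure D3:**
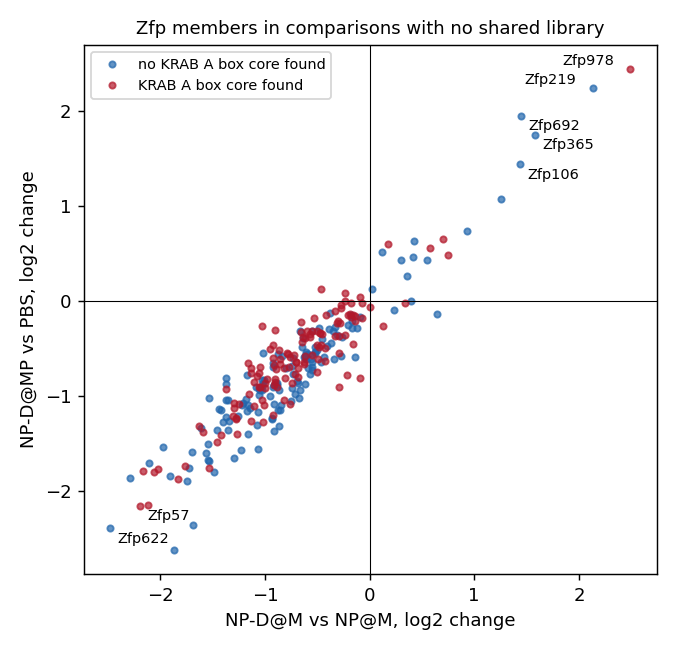
Log2 change of the 269 Zfp members (points) for NP-D@M vs NP@M (x axis) and in NP-D@MP vs PBS (y axis), on the log2(FPKM + 1) scale with the authors' scaling and no filter. Red points have a match to the KRAB A box core and blue points have no match. Of 269 points, 261 have the same sign in both comparisons.

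Library by library, in FPKM as deposited, 189 members (70.3%) had all 6 libraries with D below all 6 without D, against 40.9% of all genes of the table. Only 13 members (4.83%) had all 6 above, against 31.2% of all genes. These 13 were Zfp106, Zfp131, Zfp180, Zfp219, Zfp335, Zfp358, Zfp365, Zfp369, Zfp523, Zfp560, Zfp692, Zfp938 and Zfp978. On the table-read scale only Zfp219 and Zfp978 of them were called higher in NP-D@M vs NP@M. Zfp106, Zfp131, Zfp335, Zfp560 and Zfp938 were among those called lower there.

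Among the members with roles in translation and RNA, the ribosome assembly factor gene Zfp622 had the largest fall. Zfp622 (ENSMUSG00000052253, chromosome 15, 25984366 to 25998481, GRCm38) encodes the mouse counterpart of human ZNF622, which works in the last cytoplasmic steps of building the large ribosomal subunit. It had 0.281, 0.499 and 0.767 FPKM in the NP-D@MP libraries and 0.267, 0.367 and 0.581 FPKM in the NP-D@M libraries. It had 6.47, 7.16 and 6.77 FPKM with NP@M and 6.65, 7.20 and 6.90 FPKM with PBS. The groups with D lay far below those without D and did not overlap them. In reads, 16, 19 and 34 with NP-D@M stood against 1415, 1513 and 1499 with NP@M. Its mean was 16.8-fold lower in NP-D@M than in NP@M cells (log2 change -2.48, SE 0.12, limma adjusted p = 3.78e-09) and 13.4-fold lower in NP-D@MP than in PBS cells (log2 change -2.40, SE 0.12, limma adjusted p = 5.02e-09). Zfp622 stayed below 1 FPKM in every library with D, so it passed the filter through the libraries without D alone. Its adjusted p-values are given as a description.

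Zfp36, whose product tristetraprolin binds AU-rich elements in mRNA and speeds their decay, also fell. It had 4.47, 6 and 5.58 FPKM with NP-D@MP and 4.39, 3.77 and 4.46 FPKM with NP-D@M, against 12.1, 11.7 and 8.53 FPKM with NP@M and 16.2, 17.3 and 13.8 FPKM with PBS. All libraries with D lay below all without D, and the NP@M libraries lay below the PBS libraries. The log2 change was -1.16 for NP-D@M vs NP@M (SE 0.14, limma adjusted p = 1.09e-05) and -1.40 in NP-D@MP vs PBS (SE 0.14, limma adjusted p = 2.17e-06). The double-stranded RNA binding gene Zfp346 averaged 3.54 ± 0.906 FPKM with NP-D@M and 6.25 ± 0.330 FPKM with NP@M (SD, n = 3, log2 change -0.69, limma adjusted p = 0.00219). Zfp638, whose human counterpart takes part in silencing unintegrated retroviral DNA, averaged 0.227 ± 0.0734 FPKM with NP-D@M and 1.60 ± 0.190 FPKM with NP@M (log2 change -1.08, limma adjusted p = 1.35e-06). Zfp326, whose human counterpart acts in the complex that couples elongation to splicing, fell for NP-D@M vs NP@M (log2 change -0.55, limma adjusted p = 0.00484). That call ended with a length trend removed (log2 change -0.33, limma adjusted p = 0.0600), with a GC trend removed (log2 change -0.045, limma adjusted p = 0.789) and with quantile normalization (log2 change 0.026, limma adjusted p = 0.875). In NP-D@MP vs PBS it did not pass the test, at 1.83 ± 0.562 against 2.47 ± 0.205 FPKM (limma adjusted p = 0.0696).

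Zfp598 and Zfp106, also of RNA and translation, went the other way in FPKM but not in reads. Zfp598, whose human counterpart is the ubiquitin ligase that senses collided ribosomes, was among the most abundant members. It had 32.0, 27.6 and 31.0 FPKM with NP-D@MP and 24.8, 22.5 and 35 FPKM with NP-D@M, against 18.4, 17.7 and 18.2 FPKM with NP@M and 23.9, 22.1 and 20.2 FPKM with PBS. The groups did not overlap within either comparison, but the lowest NP-D@M library lay below the highest PBS library. Its log2 change was 0.55 for NP-D@M vs NP@M (SE 0.14, limma adjusted p = 0.00349) and turned to -1.21 when on the table-read scale, with 684, 536 and 945 reads against 1857, 1726 and 1860. With a GC trend removed it was 0.11 and not called (limma adjusted p = 0.301), and with quantile normalization it was -0.57.

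The RNA-binding protein gene Zfp106 (chromosome 2, 120506820 to 120563843) had 23.9, 25.8 and 25.3 FPKM with NP-D@MP and 27.2, 26.6 and 23.2 FPKM with NP-D@M. It had 8.98, 9.16 and 8.42 FPKM with NP@M and 8.60, 8.04 and 9.12 FPKM with PBS. All libraries with D were higher in FPKM, by a log2 change of 1.43 in NP-D@M vs NP@M (SE 0.09, limma adjusted p = 2.78e-08). In reads, 2382, 2015 and 1986 with NP-D@M stood against 2874, 2831 and 2727 with NP@M, and the log2 change turned to -0.28 on the table-read scale. Exons of other genes cover 26.1% of its exon bases, so its level is uncertain.

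Among members of mitosis and protein modification, Zfp91, Zfp451 and Zfp207 were called lower. Zfp91, the gene of a ubiquitin ligase, averaged 3.29 ± 0.164 FPKM with NP-D@M and 10.5 ± 0.649 FPKM with NP@M (SD, n = 3, log2 change -1.42, SE 0.09, limma adjusted p = 4.29e-08). Zfp451, the gene of a SUMO ligase, averaged 0.428 ± 0.125 FPKM with NP-D@M and 2.69 ± 0.250 FPKM with NP@M (log2 change -1.37, limma adjusted p = 7.74e-08). Zfp207 encodes a partner of the spindle checkpoint protein BUB3. It had 11.8, 13.8 and 13.8 FPKM with NP-D@MP and 16.2, 18.7 and 12.4 FPKM with NP-D@M, against 19.8, 20.8 and 20.7 FPKM with NP@M and 17.7, 18.3 and 18.8 FPKM with PBS. Both groups with D were lower than the group they were set against, with log2 changes of -0.37 (limma adjusted p = 0.0160) and -0.45 (limma adjusted p = 0.00584). The first call ended without the third NP-D@M library (limma adjusted p = 0.0570). With a length trend removed the log2 changes were -0.17 and -0.25 (limma adjusted p = 0.198 and 0.0702), and with a GC trend removed 0.13 and -0.023 (limma adjusted p = 0.247 and 0.839).

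Activators and promoter-binding members fell except Zfp131. Zfp143, whose product binds promoters and sites of chromatin looping, had 0.154, 0.151 and 0 FPKM with NP-D@MP and 0, 1.54 and 0.420 FPKM with NP-D@M. It had 2.75, 2.65 and 2.91 FPKM with NP@M and 2.29, 2.92 and 2.24 FPKM with PBS. The second NP-D@M library, with 39 reads, stood above the other libraries with D, which had 0 to 12, and all were below those without D. Its log2 change was -1.30 for NP-D@M vs NP@M (SE 0.25, limma adjusted p = 0.000479) and -1.66 in NP-D@MP vs PBS (SE 0.25, limma adjusted p = 6.84e-05). Its human relative ZNF76 has Zfp523 as mouse counterpart, which is described with the rises.

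Zfp148 and Zfp281, which bind GC-rich promoter elements, fell by 1.40 and 1.07 on the log2 scale in NP-D@M vs NP@M (limma adjusted p = 1.15e-07 and 1.43e-05). Zfp148 averaged 1.07 ± 0.103 FPKM with NP-D@M and 4.46 ± 0.526 FPKM with NP@M (SD, n = 3). Zfp260, an activator described in heart muscle, had 13, 11 and 15 reads with NP-D@M against 753, 822 and 823 with NP@M, a fall of 2.11 on the log2 scale (SE 0.09, limma adjusted p = 1.17e-09). Zfp131, a BTB domain factor gene, averaged 16.5 ± 2.16 FPKM with NP-D@M and 12 ± 1.17 FPKM with NP@M. Its log2 change of 0.43 (limma adjusted p = 0.00865) turned to -1.29 on the table-read scale and to -0.24 with quantile normalization.

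All 4 KRAB-type repressors of imprinted loci and retroviruses that were fixed by name fell. Zfp57 and Zfp445 keep DNA methylation at imprinting control regions in the embryo. Zfp57 (chromosome 17, 37001163 to 37010635) had 0.318, 0.418 and 0.889 FPKM with NP-D@MP and 0.724, 0.218 and 1.03 FPKM with NP-D@M, against 5.99, 6.32 and 6.93 FPKM with NP@M and 5.56, 6.31 and 5.56 FPKM with PBS. All libraries with D were lower, with log2 changes of -2.19 for NP-D@M vs NP@M (SE 0.18, limma adjusted p = 3.11e-07) and -2.16 in NP-D@MP vs PBS (SE 0.18, limma adjusted p = 3.55e-07). Zfp445 averaged 0.514 ± 0.243 FPKM with NP-D@M and 4.62 ± 0.321 FPKM with NP@M (SD, n = 3, log2 change -1.90, limma adjusted p = 5.63e-08). Its KRAB core was found only when the core was allowed anywhere before the first finger.

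Zfp809 silences murine leukaemia virus by binding the primer binding site of the provirus, and averaged 0.584 ± 0.268 FPKM with NP-D@M and 3.87 ± 0.136 FPKM with NP@M (SD, n = 3, log2 change -1.63, limma adjusted p = 8.62e-06). Zfp568, the repressor of a placental Igf2 transcript, averaged 1.00 ± 0.249 FPKM with NP-D@M and 2.21 ± 0.250 FPKM with NP@M (log2 change -0.69, limma adjusted p = 0.000302). With quantile normalization the fall of Zfp568 was -0.05 and no longer called (limma adjusted p = 0.714).

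The remaining members fixed by name fell as well. Zfp706, the member with the highest FPKM in cells without D, had 13, 9.80 and 10.5 FPKM with NP-D@MP and 11.6, 11.5 and 11.7 FPKM with NP-D@M. It had 27.9, 34.3 and 31.0 FPKM with NP@M and 27.3, 27.8 and 28.6 FPKM with PBS. All libraries with D lay below 14 FPKM and all without D above 27 FPKM, a log2 change of -1.34 in NP-D@M vs NP@M (SE 0.11, limma adjusted p = 2.75e-07). Zfp703, a co-repressor gene amplified in human breast cancer, averaged 1.63 ± 0.650 FPKM with NP-D@M and 7.31 ± 0.948 FPKM with NP@M (log2 change -1.69, limma adjusted p = 2.58e-06). Zfp330, the gene of a nucleolar protein, averaged 0.879 ± 0.190 FPKM with NP-D@M and 6.37 ± 0.574 FPKM with NP@M (log2 change -1.97, limma adjusted p = 3.26e-08). Zfp217, whose human counterpart is an oncogene that binds co-repressors, averaged 2.08 ± 0.883 FPKM with NP-D@M and 3.79 ± 0.696 FPKM with NP@M. It was called lower (log2 change -0.66, limma adjusted p = 0.00344) although a NP-D@M library at 3.10 FPKM lay above a NP@M library at 3.01 FPKM. With quantile normalization the log2 change was -0.16 and no longer called (limma adjusted p = 0.370).

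Among the other falls picked by size, Zfp110, which encodes a binding partner of the p75 neurotrophin receptor, was the most abundant. It had 1.59, 2.92 and 1.87 FPKM with NP-D@MP and 1.77, 2.28 and 2.81 FPKM with NP-D@M, against 13.3, 13.7 and 12.5 FPKM with NP@M and 12.8, 12.2 and 12.9 FPKM with PBS. The libraries with D were 5.75-fold lower on average for NP-D@M vs NP@M (log2 change -2.12, SE 0.15, limma adjusted p = 9.41e-08) and 5.94-fold lower in NP-D@MP vs PBS. There was no overlap, which its pick in both comparisons required. Zfp1 had 0, 0 and 1 read with NP-D@M against 201, 177 and 208 with NP@M. Zfp760 had 0, 0 and 5 reads with NP-D@M against 448, 383 and 466 with NP@M. Both genes were at or near the limit of detection in these libraries.

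Zfp954 had 0, 0 and 5 reads with NP-D@M against 311, 223 and 315 with NP@M, and Zfp948 had 10, 0 and 5 against 336, 430 and 432. Zfp212 had 0, 5 and 0 reads with NP-D@MP against 451, 557 and 500 with PBS, the largest fall of that comparison (log2 change -2.63, SE 0.14, limma adjusted p = 5.78e-09). It stayed below 1 FPKM in every library with D and so passed the filter through the libraries without D alone. That adjusted p-value is given as a description. Zfp251 had 11, 10 and 5 reads with NP-D@MP against 553, 477 and 432 with PBS, and Zfp12 had 20, 4 and 8 against 642, 612 and 592. These 5 genes were picked among called members whose groups did not overlap, so both traits were fixed where they were picked. Zfp948 was picked in both comparisons and the others in a single comparison, and all 5 were called in both.

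The members called higher under both scalings were Zfp978 and Zfp219. Zfp978 (ENSMUSG00000078497, chromosome 4, 147361303 to 147391004, GRCm38), a KRAB zinc finger gene, had 29.0, 26.9 and 25.3 FPKM with NP-D@MP and 34.2, 24.7 and 23.5 FPKM with NP-D@M. It had 3.77, 4.22 and 3.98 FPKM with NP@M and 5.14, 3.57 and 3.81 FPKM with PBS. All libraries with D were higher, and so were the reads, at 369, 231 and 248 with NP-D@M against 149, 161 and 159 with NP@M. The log2 change was 2.49 for NP-D@M vs NP@M (SE 0.15, limma adjusted p = 1.80e-08) and 0.85 on the table-read scale (adjusted p = 0.000175). Other genes hold 77.4% of its 50-base words, including the word shown above, so its reads may belong in part to its neighbours.

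Zfp219 (ENSMUSG00000049295, chromosome 14, 52006077 to 52020733) encodes a C2H2 protein that partners SOX9 in cartilage. It had 23.4, 18.6 and 24.6 FPKM with NP-D@MP and 13.3, 15.6 and 18.4 FPKM with NP-D@M, against 2.94, 2.28 and 3.17 FPKM with NP@M and 3.98, 4.15 and 3.44 FPKM with PBS. No library with D overlapped those without D. None of its 50-base words occurs in another gene, and exons of other genes cover 12.7% of its exon bases. The log2 change was 2.14 for NP-D@M vs NP@M (SE 0.14, limma adjusted p = 5.21e-08) and 0.58 on the table-read scale (adjusted p = 0.00219). In NP-D@MP vs PBS these were 2.25 (limma adjusted p = 3.36e-08) and 0.57 (adjusted p = 0.00243).

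The other rises were called in FPKM but not as rises on the table-read scale, where some of these members were called lower. Zfp365 had 19.8, 23.6 and 23.9 FPKM with NP-D@MP and 22.6, 20.9 and 18.9 FPKM with NP-D@M, against 5.90, 6.54 and 6.39 FPKM with NP@M and 6.2, 5.22 and 6.39 FPKM with PBS. Its FPKM was higher in every library with D, while its reads were nearly level, at 988, 790 and 808 with NP-D@M against 942, 1008 and 1033 with NP@M. On the table-read scale, its NP-D@M level was 0.931 times that in NP@M (limma adjusted p = 0.414), and that in NP-D@MP was 1.02 times that in PBS (limma adjusted p = 0.839).

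Zfp692 had 4.85, 12.6 and 15 FPKM with NP-D@M, the first library lying apart from the others, against 2.54, 2.30 and 4.35 FPKM with NP@M. It had 13.1, 15.3 and 13.9 FPKM with NP-D@MP against 2.55, 3.12 and 3.04 FPKM with PBS. The groups did not overlap in either comparison, which the pick of Zfp692 in both required. On the table-read scale neither change was called (limma adjusted p = 0.808 and 0.295). Zfp523, the counterpart of human ZNF76 and a relative of Zfp143, averaged 5.60 ± 0.807 FPKM with NP-D@M and 1.75 ± 0.156 FPKM with NP@M, while Zfp143 fell. On the table-read scale, the log2 change of 1.26 of Zfp523 turned to -0.12 and was not called (limma adjusted p = 0.321). In NP-D@MP vs PBS it turned from 1.07 to -0.42 and was called lower (limma adjusted p = 0.00374). Zfp335, needed for neural progenitors and T cells, averaged 7.21 ± 0.284 FPKM with NP-D@M and 3.31 ± 0.287 FPKM with NP@M, with 28.3% of its exon bases under exons of other genes. Its log2 change of 0.93 turned to -0.59 on the table-read scale and was called lower (limma adjusted p = 3.99e-05). The KRAB genes Zfp560 and Zfp938 averaged 2.53 and 3.8 FPKM with NP-D@M against 1.07 and 1.94 FPKM with NP@M. Their log2 changes of 0.75 and 0.71 turned to -0.38 and -0.64 on that scale, both called lower (limma adjusted p = 0.0290 and 0.0026). With a length trend removed that of Zfp938 was 0.18 and not called (limma adjusted p = 0.306).

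**Figure D4:**
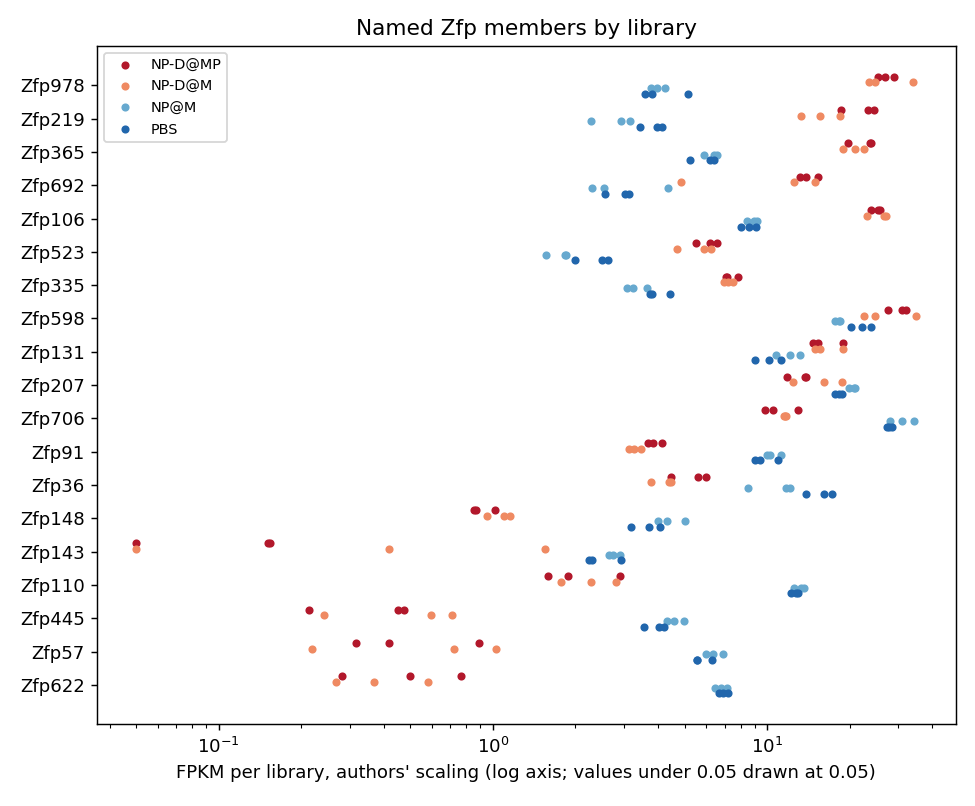
FPKM per library with the authors' scaling (x axis, log scale, values under 0.05 drawn at 0.05) for 19 of the named Zfp members (rows), with 3 points for each of the 4 treatments. From Zfp978 to Zfp131 the libraries with D lie to the right of the group they were set against, and from Zfp207 to Zfp622 they lie to the left.

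Of the 129 members with a KRAB core, 4 rose and 106 fell for NP-D@M vs NP@M, with a median log2 change of -0.70. Of the 140 without a match, 12 rose and 112 fell, with a median of -0.84. The split is by this pattern alone and does not tell all KRAB genes from the others. These calls were made in FPKM without a filter, where 35.1% of all genes rose and 45.8% fell. On the table-read scale only 2 of all 269 members rose. As a share of the reads in the table, members with the core held 0.0178% with NP-D@M against 0.181% with NP@M, and members without a match held 0.0973% and 0.545%. Members with the core were also lower in level, with a median FPKM of 0.207 with NP-D@M and 1.16 with NP@M, against 0.658 and 2.25 in the others. A log2(FPKM + 1) change understates low genes.

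By the number of fingers, 25 of 31 members with 1 to 4 fingers fell, as did 63 of 79 with 5 to 9, 81 of 97 with 10 to 14 and 45 of 55 with 15 or more. Of the 7 members without a C2H2 finger 4 fell and 1, Zfp365, rose in FPKM. Over all genes, 35.1% rose and 45.8% fell in the same fit. The 231 members with at most 20% shared words and at most 20% exon overlap gave 13 rises and 192 falls, against 16 and 218 of all 269.

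With NP-D@M, the greater part of the members of most large genomic clusters fell. Chains of at least 5 members with gaps of at most 200 kb numbered 11, and each held at least 3 members that fell with NP-D@M and at most 1 that rose. The calls are those in FPKM without a filter, where 45.8% of all genes fell and 35.1% rose. In the largest, 16 members at chromosome 17, 21423227 to 22456689, 14 fell and none rose, with a median log2 change of -0.91. In the cluster of 15 at chromosome 13, 67038596 to 67827002, 13 fell and none rose, with a median of -0.50, and this cluster holds Zfp85, Zfp712, Zfp429 and Zfp455. All 8 members at chromosome 7, 127233061 to 127615797, and all 6 at chromosome 6, 47835661 to 48086593, fell, with medians of -0.94 and -1.20.

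The cluster of 8 KRAB genes at chromosome 4, 147132038 to 147848366, which holds Zfp978, had 5 falls and 1 rise for NP-D@M vs NP@M, and 3 falls and 2 rises, Zfp978 and Zfp991, in NP-D@MP vs PBS. In 6 of its 8 members over 20% of the 50-base words occur in other genes, so single genes there cannot be told apart well. The cluster of 5 at chromosome 7, 6131491 to 6396915, had 3 falls for NP-D@M vs NP@M and 2 in NP-D@MP vs PBS, with medians of -0.27 and -0.09. Members within 200 kb of another gave 5 rises and 130 falls of 156 for NP-D@M vs NP@M, and those farther apart gave 11 rises and 88 falls of 113. In that comparison 35.1% of all genes rose and 45.8% fell, and in NP-D@MP vs PBS 37% rose and 45% fell.

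**Figure D5:**
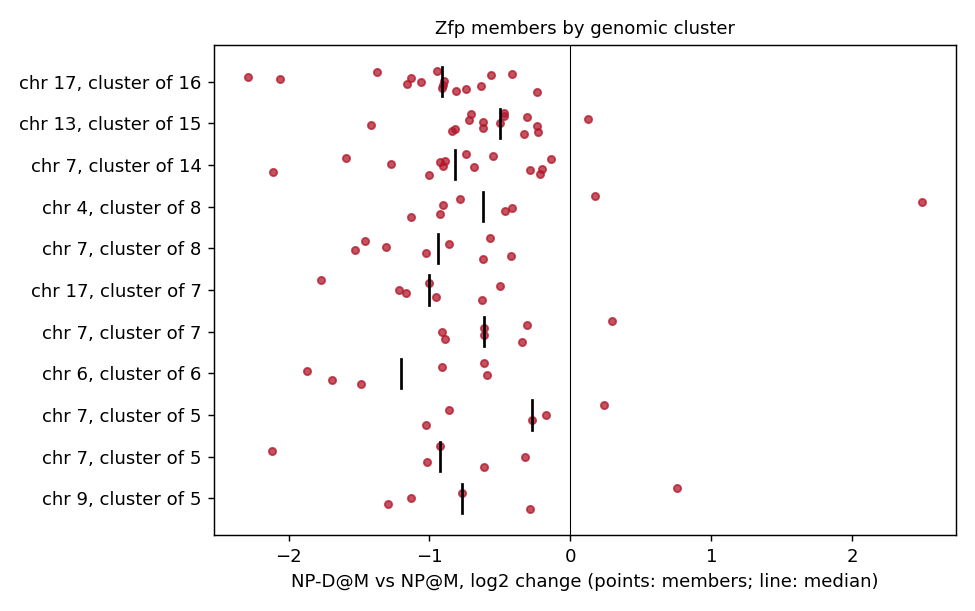
Log2 change in NP-D@M vs NP@M on the log2(FPKM + 1) scale with the authors' scaling and no filter (x axis) for the members of each of 11 genomic clusters (rows, named by chromosome and size); points are members and black lines are medians. The medians lie below 0 in all 11 clusters, and Zfp978 on chromosome 4 lies farthest to the right.

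The co-repressor machinery that KRAB proteins recruit changed in both directions in FPKM, as did all genes tested. Of 18 listed genes 16 were in the table. For NP-D@M vs NP@M limma called 6 higher and 10 lower, against 41.8% and 47.7% of all genes tested. In NP-D@MP vs PBS it called 5 higher and 10 lower, against 43.2% and 47.3%. Trim28, the KRAB co-repressor, averaged 88.0 ± 16.8 FPKM with NP-D@M and 55.7 ± 3.18 FPKM with NP@M (SD, n = 3, limma adjusted p = 0.00135), and its log2 change of 0.63 turned to -1.18 on the table-read scale. Chd3 and Hdac1, subunits of the NuRD complex, averaged 59.9 and 77.9 FPKM with NP-D@M against 5.87 and 9.36 FPKM with NP@M. They were the 2 genes that stayed higher on that scale, with 14 lower, against 17.5% and 70.5% of all genes tested. Of the other listed genes of NuRD subunits, Chd4 averaged 10.1 FPKM with NP-D@M and 19.0 FPKM with NP@M, and Hdac2 averaged 1.89 FPKM with NP-D@M. Both were called lower than with NP@M, with log2 changes of -0.85 and -1.95 (limma adjusted p = 7.57e-06 and 8.80e-08). The H3K9 methyltransferase gene Setdb1 averaged 3.70 ± 1.04 FPKM with NP-D@M and 6.80 ± 0.511 FPKM with NP@M (limma adjusted p = 0.000544). Its partner Atf7ip averaged 0.553 ± 0.211 FPKM with NP-D@M and 3.99 ± 0.127 FPKM with NP@M (limma adjusted p = 1.61e-08).

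Other C2H2 genes mostly fell too. Without a filter, 0 of 27 Zbtb genes rose and 24 fell for NP-D@M vs NP@M, as did 1 and 15 of 17 Zkscan and Zscan genes and 0 and 15 of 16 Klf and Sp genes. Over all genes 35.1% rose and 45.8% fell. Among single C2H2 factors 2 of 8 rose, Egr1 and Maz, and 6 fell, among them the insulator factor gene Ctcf at 1.85 ± 0.369 FPKM with NP-D@M and 14.5 ± 0.387 FPKM with NP@M. On the table-read scale all 8 were lower, against 67.1% of all genes. By the family column of the table, looked at after these results were seen, 82.0% of the zf-C2H2 members and 80.3% of the 127 other zf-C2H2 genes were called lower. The share was 82.4% in ZBTB, 76% in HMG, 68.1% in homeobox, 63.6% in bZIP and 55.9% in bHLH genes, against 45.8% of all genes. No test of a difference between the Zfp genes and these families was made.

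NP@M against PBS asks what the coated carrier without D does. Of the 269 members limma called 0 higher and 0 lower without a filter, against 0.0238% and 0.00795% of all genes, and 29 members (10.8%) had an unadjusted p under 0.05, as did 10.8% of all genes. With the filter it called 0 of 190 in either direction, against 0% and 0.0099% of genes. On the table-read scale it called 0 of 269, against 0.135% and 0.167% of all genes. By limma voom on the recovered reads 1 of 190 members (0.526%) was called lower, against 0.188% of genes higher and 0.505% lower. It was Zfp36 (log2 change -0.55, adjusted p = 0.0457), which limma on FPKM did not call (log2 change -0.52, SE 0.14, adjusted p = 0.448). The groups did not overlap in 52 members that were higher and 27 that were lower, against 11.7% and 14.7% of all genes. The median log2 change was 0.08 for members. Those with a match to the KRAB core had a median of 0.14, against 0.02 in those without a match.

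NP-D@MP against NP-D@M asks what the P in the name changes. Limma called 1 of 269 members higher and 0 lower without a filter, against 0.0874% and 0.0795% of all genes, with 33 members (12.3%) at an unadjusted p under 0.05, against 16.6% of all genes. With the filter it called 0 of 190 in either direction, against 0.0396% and 0.0099% of genes, and limma voom called 0 members. The 1 call was Zfp579, which had 0.900, 1.11 and 1.18 FPKM with NP-D@MP and 0.430, 0.265 and 0.527 FPKM with NP-D@M (log2 change 0.55, adjusted p = 0.0424 without the filter and 0.0635 with it). Its groups did not overlap, and it stood at 1.76 to 2.08 FPKM in cells without D. On the table-read scale 0 of 269 were called, against 0.0159% and 0.00795% of all genes. The groups did not overlap in 16 members that were higher and 15 that were lower, against 9.01% and 4.24% of all genes. Without the third NP-D@M library, the one with the fewest members at 0 reads, 5 of 190 members (2.63%) were called higher and 7 (3.68%) lower, against 9.59% and 2.87% of genes, among them Zfp219 (log2 change 0.58, limma adjusted p = 0.0300) and Zfp97 (adjusted p = 0.0253).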

How the data were processed

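RNA sequencing of 12 libraries was analysed. The authors deposited FPKM values for 12584 genes with GRCm38 coordinates; the sources used here give no counter, strand setting or origin of the divisor, so antisense overlap stays uncertain, and the submitters' processing notes name Bowtie 0.12.2 and mm8. FPKM times gene length was a whole multiple of a single step in 100% of values (tolerance 1e-06), which gave whole reads. The main test was limma 3.58.1 (R 4.3.3) on log2(FPKM + 1) with all 12 libraries in a single fit, genes with at least 1 FPKM in at least 3 libraries, and Benjamini-Hochberg adjustment over all genes; a gene was called at an adjusted p under 0.05. Values of single genes come from this fit unless stated. The fit was tested on simulated reads with 200 changed genes, fewer than were called here. That test did not cover the difference in scaling.

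Fingers (cysteines 2 to 4 residues apart, 12 residues, histidines 3 to 5 apart) and the KRAB A box core (first 150 residues) were searched in translated GENCODE M21 coding sequences, since no protein table was used. Named members were 27 fixed by symbol, of which 23 are members and Zfp42, Zfp593, Zfp521 and Zfp423 were not analysed here, and, per comparison, the 8 largest rises and 8 largest falls among called members without overlap and with at least 2 FPKM in the higher group. Members and lists were chosen with earlier results of these data known. Counting error alone is covered by the reads given, and a single read on 1 kb amounted to 0.119 to 0.140 FPKM with D and 0.0322 to 0.0355 FPKM without D. Alternatives were other scalings, filters, pseudocounts, thresholds and variance models, trends on gene length and GC, fewer libraries, and limma voom on the recovered reads. The fit without a filter on the table-read scale, which divides reads by their sum in the table, the wider KRAB window, and some settings for the median difference were added after seeing the data.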

Additional observations from a re-analysis of the deposited data

How the results depend on the processing

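No paired analysis was possible because library numbers run from 1 to 12 through all groups and none is shared. Depth limits the low members: with D most had few reads, and their falls are small on the log2(FPKM + 1) scale. Single members were followed through the alternatives only for NP-D@M vs NP@M and NP-D@MP vs PBS, and the cause of each change below was not tested.

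The members called higher, 15 for NP-D@M vs NP@M and 17 in NP-D@MP vs PBS, numbered 2 and 2 on the table-read scale, with or without the filter, and 2 and 2 with limma voom on the recovered reads. The members called lower, 157 and 158, numbered 102 and 101 with quantile normalization, 259 and 257 without a filter on the table-read scale, and 105 and 103 with a mean of at least 1 FPKM, which tests 134 members. Leaving out a library gave 15 to 17 higher and 148 to 158 lower for NP-D@M vs NP@M, and 14 to 17 higher and 148 to 155 lower in NP-D@MP vs PBS. In NP-D@MP vs NP-D@M it gave 0 to 5 higher and 0 to 7 lower, all of them without NP-D@M replicate 9, and 1 was higher with no filter and with a pseudocount of 0.1. In NP@M vs PBS leaving out a library gave 0 either way, and voom called 1 lower. Every other alternative listed kept these counts within 1.5 times.

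The median of the members minus that of all genes tested was -0.73 for NP-D@M vs NP@M and -0.72 in NP-D@MP vs PBS. It was -0.43 and -0.36 on the table-read scale, -0.56 and -0.51 on that scale with no filter, -0.32 and -0.31 with quantile normalization, -0.60 and -0.59 with no filter, -0.98 and -0.98 with a mean of at least 1 FPKM, -1.43 and -1.47 with a pseudocount of 0.1, -1.56 and -1.66 with voom, -0.52 and -0.51 with a length trend removed and -0.59 and -0.61 with a GC trend removed. In NP-D@MP vs NP-D@M it was -0.09, with -0.16 at a pseudocount of 0.1 and -0.026 on the table-read scale with no filter. In NP@M vs PBS it was 0.10, with 0.13 at a pseudocount of 0.1, 0.079 with no filter, 0.15 with voom and 0.0067 with a GC trend removed. Leaving out a library gave -0.78 to -0.72 in NP-D@M vs NP@M, -0.77 to -0.72 in NP-D@MP vs PBS, -0.095 to -0.065 in NP-D@MP vs NP-D@M and 0.069 to 0.13 in NP@M vs PBS.

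On the table-read scale and with voom, the log2 changes of these members turned: Zfp106 to -0.28 and -0.30 for NP-D@M vs NP@M and to -0.33 and -0.35 in NP-D@MP vs PBS, Zfp131 to -1.29 and -1.39 and to -1.12 and -1.20, Zfp335 to -0.59 and -0.71 and to -0.85 and -1.01, Zfp523 to -0.12 and -0.15 and to -0.42 and -0.53. Likewise Zfp560 turned to -0.38 and -0.63 and to -0.60 and -1.04, Zfp598 to -1.21 and -1.25 and to -1.38 and -1.44, and Zfp938 to -0.64 and -0.87 and to -0.62 and -0.88. In NP-D@M vs NP@M alone Zfp365 turned to -0.10 and -0.11 and Zfp692 to -0.078 and -0.13. With quantile normalization Zfp131 turned to -0.24 and Zfp326 to 0.026 for NP-D@M vs NP@M, and Zfp598 to -0.57 there and to -0.83 in NP-D@MP vs PBS. With a GC trend removed Zfp207 turned to 0.13 for NP-D@M vs NP@M and Zfp598 to -0.0057 in NP-D@MP vs PBS. The named falls other than those of Zfp207, Zfp217, Zfp326 and Zfp568 kept their call under every alternative that tested them. Zfp638 was not tested with a mean of at least 1 FPKM.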
